A study of Chlorocebus aethiops with 24 samples.

Results

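At 2 years of age, 5 male vervet monkeys with fetal alcohol exposure (FASD) were compared with 6 male controls for messenger RNA of the hippocampus. The members of this comparison are the 11 arrays of that age that hold values, of 24 in the series, and every one of the 11512 probe sets on them was tested. The FASD animals are numbered 1, 2, 3, 4 and 6, because the column of animal 5 held no values and was not analysed here. The other 13 arrays are the discarded one and those of 5-month-old animals, of which 11 held values. All dams were alcohol-preferring captive vervets that drank voluntarily late in pregnancy, ethanol in the FASD groups and an isocaloric sucrose solution in the controls. According to the study's methods, a dam could serve in different conditions in different breeding cycles, so some animals may share a mother, and the labels used here do not say which. Each array held RNA from the left hippocampus of 1 animal, hybridized to the Affymetrix GeneChip Rhesus Macaque Genome Array, so vervet transcripts were read with probes made for another monkey. The values are log2 expression intensities, and a difference of 1 on this scale is a doubling.

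The hippocampus serves memory and spatial learning. It holds pyramidal and granule neurons, inhibitory neurons, astrocytes, microglia, oligodendrocytes and their precursors, and blood vessels, and it borders on the ependyma and choroid plexus of the ventricle. Ethanol crosses the placenta, and exposure late in gestation falls on a period of synapse formation, glial growth and myelination. Markers of hippocampal tissue were measured in the 2-year controls, with a mean log2 expression of 10.62 for NRGN, a calmodulin-binding protein of principal neurons, and 8.09 for PROX1, a transcription factor of dentate granule cells. In RNA from whole tissue, fewer cells of a type and less RNA per cell cannot be told apart.

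Most genes were expressed at similar levels in FASD and control animals at 2 years. The difference, FASD minus control, was under 0.25 on the log2 scale for 94.5% of the probe sets, above 0.5 in either direction for 42 of them and above 1 for 2, those of NGFR and C4BPA. With limma, 696 of the 11512 probe sets (6.05%) had an unadjusted p under 0.05, where 575.6 would be so if p were uniform. That fit shares its variance with the 5-month arrays. A fit to only the 11 arrays of 2 years gave 540 (4.69%), of which 451 were among the 696. Of the 696, 310 (2.69%) were higher in FASD and 386 (3.35%) were lower, a share of 55.5% lower against 46.1% lower over all probe sets. None passed an adjusted p under 0.05 by limma with Benjamini-Hochberg adjustment, and the lowest adjusted p was 0.793. Each gene below therefore stands at an adjusted p of 0.793 or more, and its unadjusted p is one of 11512. The median standard error of the difference was 0.094.

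**Figure D1:**
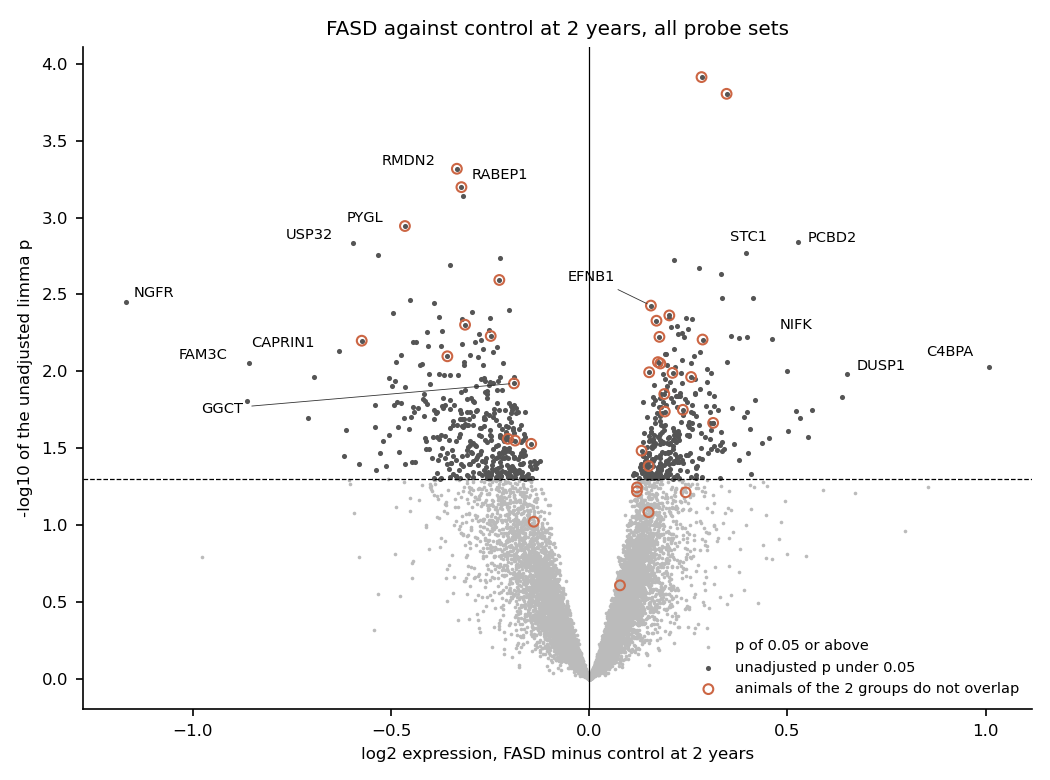
Each point is a probe set, with the log2 difference of FASD minus control at 2 years on the x axis and the negative log10 of the unadjusted limma p on the y axis, and the dashed line marks a p of 0.05. Dark points are the 696 probe sets under that line's p, and circles mark the 36 whose FASD and control values do not overlap.

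The number of such probe sets depended on single animals. It was 1670 without control animal 2, and 417, 458 and 395 without control animals 4, 5 and 6. It was 449 without FASD animal 1, and 631 to 774 without any of the others. The lowest adjusted p in these 11 fits was 0.094, without control animal 2. Pearson's r between the 2-year arrays was 0.978 to 0.994 over 55 pairs, as a correlation across genes. Control animal 2 and FASD animal 2 had the lowest array weights of the 11, 0.379 and 0.413, and stood together on the first principal component, which held 31.6% of the variance. Their scores on it were 19.1 and 22.005, control animals 4, 5 and 6 lay between -14.9 and -13.3, and the other 6 lay between -1.3 and 2.8. The scores did not separate the groups beyond the spread between animals (p = 0.234, two-sided exact permutation test with 462 arrangements). Without both animals numbered 2, 1398 probe sets had an unadjusted p under 0.05.

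**Figure D2:**
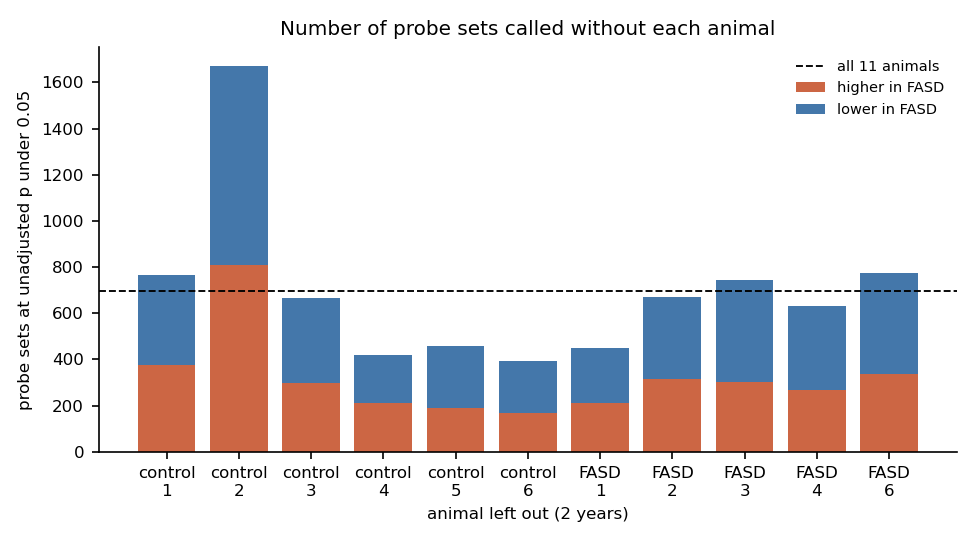
Bars give the number of probe sets at an unadjusted limma p under 0.05 when the named 2-year animal was left out, split into those higher and those lower in FASD. The dashed line is the count of 696 with all 11 animals, which the bar without control animal 2 exceeds at 1670.

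Among the genes higher in FASD, EFNB1 had no overlap between the groups. It encodes ephrin-B1, a membrane-bound ligand that signals through Eph receptors on neighbouring cells during axon guidance. The study followed this gene for an effect of alcohol on these same animals, so its direction here is not independent evidence. Its log2 expression was between 7.51 and 7.64 in controls, with a median of 7.59, and it was 7.83, 7.71, 7.65, 7.74 and 7.73 in FASD animals 1, 2, 3, 4 and 6. All 5 FASD animals lay above every control. The difference was 0.16 (standard error 0.05), a linear ratio of 1.11 (limma, unadjusted p = 0.00374, and exact permutation test, two-sided, p = 0.00216, the smallest that 5 against 6 animals allow). YIPF2, a membrane protein of the Golgi, was also above every control in all 5 FASD animals, at 8.34 to 8.41 against 8.12 to 8.31, a difference of 0.17 (standard error 0.05).

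STC1, which encodes the secreted glycoprotein stanniocalcin, was between 6.74 and 7.17 in controls, with a median of 6.86. In FASD animals 1, 2, 3, 4 and 6 it was 7.51, 7.24, 7.24, 7.16 and 7.31, so that 4 of the 5 lay above all controls, and FASD animal 4 lay just under control animal 4. The difference was 0.40 (standard error 0.11, unadjusted p = 0.0017 by limma). RNASE1, a ribonuclease secreted by endothelial cells, was 0.40 (standard error 0.13) higher, with 4 of 5 FASD animals above all controls. ADGRA2, an adhesion receptor that takes part in the growth of brain vessels, was 0.33 (standard error 0.10) higher, again with 4 of 5 above all controls.

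C4BPA, the alpha chain of a complement inhibitor of the blood, had the highest difference of any probe set at 1.01 (standard error 0.35), a linear ratio of 2.01. It was between 5.97 and 8.17 in controls, with a median of 6.69, and 7.45, 7.81, 8.23, 7.72 and 7.59 in the FASD animals. The groups overlapped through control animal 3, whose value of 8.17 was above those of 4 FASD animals, while the other controls were at 6.82 or less. The unadjusted p by limma was 0.00931, and the exact permutation p, two-sided, was 0.0281. PCBD2, a dehydratase of pterin metabolism, was 0.53 (standard error 0.14) higher, but control animal 1, at 6.59, lay above 4 of the 5 FASD animals.

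DUSP1, a phosphatase that switches off MAP kinases and that glucocorticoids and neuronal activity induce, was between 7.59 and 8.95 in controls, with a median of 8.47. It was 8.87, 9.08, 8.94, 9.17 and 9.18 in FASD animals 1, 2, 3, 4 and 6, with 3 of them above all controls. The FASD animals were close together, with an SD of 0.14 against 0.50 in controls, and the lowest value was that of control animal 6. The difference was 0.65 (standard error 0.23, unadjusted p = 0.0105 by limma). SPRY4, an inhibitor of receptor tyrosine kinase signalling, was 0.26 (standard error 0.09) higher and MAP2K5, a kinase of the ERK5 branch, was 0.21 (standard error 0.08) higher.

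Of the other genes among the 10 higher in FASD with the lowest p, UXS1, an enzyme that makes UDP-xylose for proteoglycans, differed by 0.41 (standard error 0.13), with 4 of 5 FASD animals above all controls. PRR7, a membrane protein of the postsynaptic density, differed by 0.26 (standard error 0.08). GLE1, a factor of mRNA export, differed by 0.21 (standard error 0.07), while its other probe set differed by 0.06 with an unadjusted p of 0.701. CRTAM, an adhesion molecule of lymphocytes, differed by 0.23 (standard error 0.08) and ARMH3 by 0.28 (standard error 0.08). The mean expression of CRTAM over all arrays was low, at percentile 6.61. NIFK, a nucleolar protein, was among the 5 named genes with the highest difference at an unadjusted p under 0.01, at 0.46 (standard error 0.15), with control animal 6 at 7.81 within the FASD range.

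**Figure D3:**
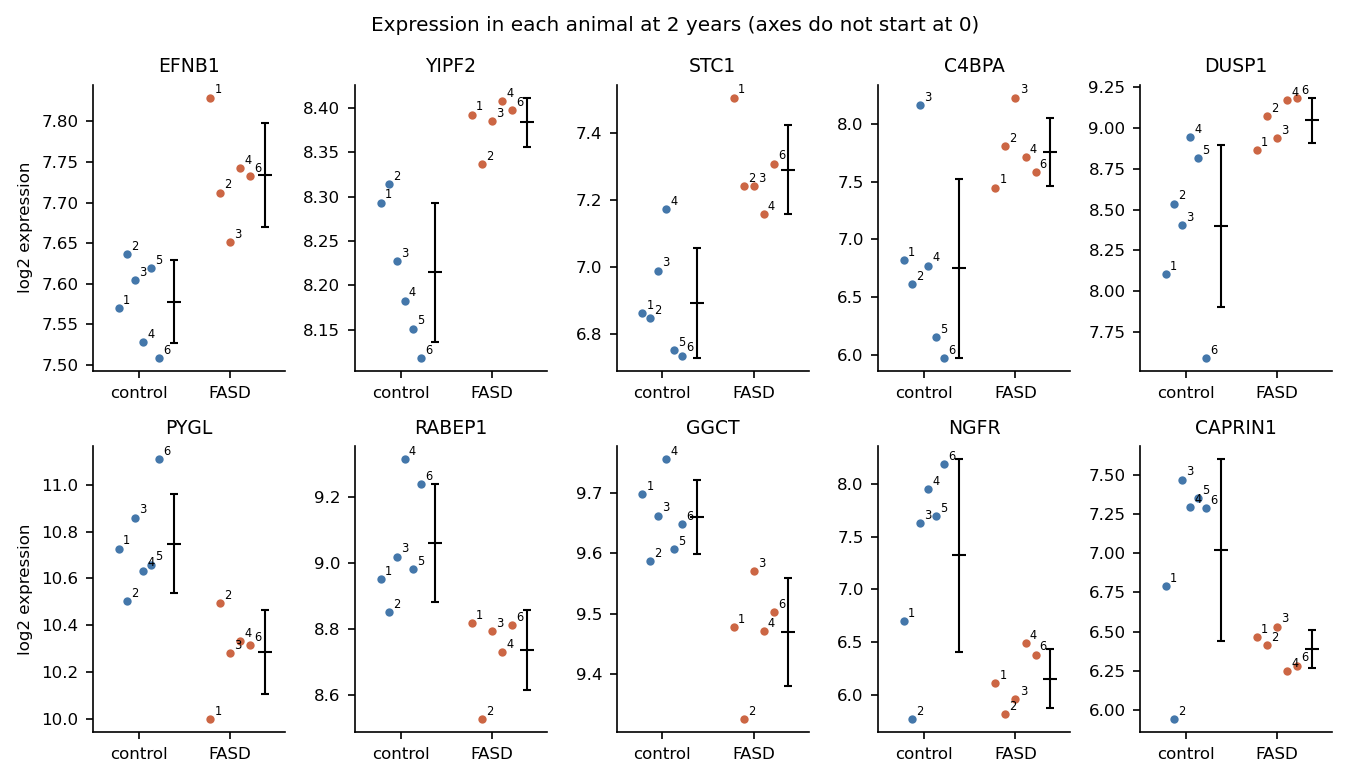
Log2 expression of 10 genes in each 2-year animal, with the animal's number beside its point and the group's mean and SD to the right, on axes that do not start at 0. EFNB1, YIPF2, PYGL, RABEP1 and GGCT have no overlap between FASD and control, and control animal 2 lies among or below the FASD animals for NGFR and CAPRIN1.

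Among the genes lower in FASD, PYGL and GGCT had no overlap between the groups. PYGL, which encodes a glycogen phosphorylase that releases glucose units from glycogen, was between 10.50 and 11.11 in controls, with a median of 10.69. In FASD animals 1, 2, 3, 4 and 6 it was 9.997, 10.49, 10.28, 10.33 and 10.32. All 5 were below every control, though FASD animal 2 only just below control animal 2. The difference was -0.46 (standard error 0.12), a linear ratio of 0.725 (limma, unadjusted p = 0.00114, and exact permutation test, two-sided, p = 0.00433). GGCT, an enzyme that cleaves gamma-glutamyl peptides in the breakdown of glutathione, was between 9.59 and 9.76 in controls and 9.48, 9.33, 9.57, 9.47 and 9.50 in the FASD animals. Its difference was -0.19 (standard error 0.07, unadjusted p = 0.012 by limma). The study followed GGCT on these animals as well, so this direction too is not independent evidence.

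RABEP1 encodes rabaptin-5, an effector of Rab5 in the fusion of early endosomes. It was between 8.85 and 9.31 in controls, with a median of 9.0005, and 8.82, 8.53, 8.79, 8.73 and 8.81 in the FASD animals, with no overlap. The difference was -0.32 (standard error 0.08, unadjusted p = 0.000634 by limma). TBC1D12, a protein with a domain that acts on Rab GTPases, was lower by -0.23 (standard error 0.07), again with no overlap. USP32, a deubiquitinase, differed by -0.60 (standard error 0.16), with 4 of 5 FASD animals below all controls.

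RMDN2, a regulator of microtubule dynamics, had the lowest p of any named gene (limma, unadjusted p = 0.000482) and no overlap, at -0.33 (standard error 0.08). Its mean expression over all arrays, 3.55, placed it in the lowest 1% of probe sets (percentile 0.773). CCDC88A, which encodes the actin-binding protein girdin, differed by -0.53 (standard error 0.15). ADD3, an adducin that links spectrin to actin, differed by -0.49 (standard error 0.15), with 4 of 5 FASD animals below all controls and FASD animal 2 at 11.57 inside the control range. EML5, a microtubule-associated protein, differed by -0.39 (standard error 0.12). LPAR5, a receptor for lysophosphatidic acid, differed by -0.35 (standard error 0.10), with 4 of 5 FASD animals below all controls.

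NGFR, the p75 receptor for neurotrophins, which in the forebrain is best known from cholinergic neurons, had the lowest difference of all probe sets. It was 6.70, 5.77, 7.63, 7.95, 7.70 and 8.18 in control animals 1 to 6, and 6.11, 5.82, 5.96, 6.49 and 6.38 in the FASD animals. The FASD animals were close together, with an SD of 0.28 against 0.91 in controls, and control animal 2 was below all FASD animals. The difference was -1.17 (standard error 0.36), a linear ratio of 0.445 (limma, unadjusted p = 0.00351, and exact permutation test, two-sided, p = 0.0346). Without control animal 2 it was -1.48. FAM3C, a secreted cytokine-like protein, was alike in pattern, with controls at 6.53, 5.72, 6.83, 7.67, 7.90 and 7.88 and FASD animals between 6.10 and 6.38, a difference of -0.86 (standard error 0.30). Its exact permutation p, two-sided, was 0.0779, and no FASD animal lay below all controls. CAPRIN1, an RNA-binding protein of stress granules, differed by -0.63 (standard error 0.21), with FASD animals between 6.25 and 6.53 and control animal 2 at 5.94. In NGFR, FAM3C, CAPRIN1, CCDC88A and USP32, control animal 2 had the lowest and control animal 1 the next lowest of the 6 control values. Whether these 5 genes share a source of variation between animals was not tested.

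The values of FASD and control animals did not overlap for 36 probe sets (0.313% of those tested), with FASD higher for 23 (0.200%) and lower for 13 (0.113%). Of the 462 arrangements of the animals, 1 puts all FASD values above all controls and 1 puts all below, a share of 0.00216 each. The observed share was below this in both directions, so a lack of overlap does not by itself set a gene apart. Of the 36, 30 had an unadjusted p under 0.05 by limma, 24 had a gene symbol, 4 only a locus number, and 8 none or several. The genes of this set named next, beyond those above, were chosen after their values were seen. Higher in all 5 FASD animals than in any control were ATF7IP (0.21), a regulator of histone methylation at silenced genes, TAF1 (0.18), a subunit of the general transcription factor TFIID, and H2AC8 (0.24), a histone H2A. The same held for NFKBIB (0.26), an inhibitor of NF-kappa-B, KCNJ5 (0.19), a potassium channel subunit, and NPM3 (0.19), a histone chaperone. NFKBIB and H2AC8 had low mean expression over all arrays, at percentiles 4.88 and 5.74. Lower in all 5 were FERMT2 (-0.31), the integrin activator kindlin-2, ADHFE1 (-0.25), a mitochondrial enzyme of the alcohol dehydrogenase family, SAR1B (-0.21), a GTPase of vesicle export from the endoplasmic reticulum, and TMOD3 (-0.15), which caps actin filaments. The count without 1 animal was 45 to 53 for control animals 3, 4 and 5 and FASD animal 1. It was 75, 339 and 57 without control animals 1, 2 and 6, and 104, 89, 64 and 97 without FASD animals 2, 3, 4 and 6. A gap between fewer animals is easier to reach, so these counts rise in part by construction.

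Among the cell types of the hippocampus, neurons and astrocytes had no measured marker at an unadjusted p under 0.05, against 6.05% of all probe sets. This held for 11 probe sets of pyramidal and granule neurons (median difference -0.02), 8 of inhibitory neurons (0.02), 13 of astrocytes (-0.05) and 12 of immature neurons and neurogenesis (-0.01), against a median of 0.01 over all probe sets. None of 13 probe sets of mature oligodendrocytes and myelin was called either, with a median of 0.03. With 6.05% of all probe sets called, lists this short may hold no call, so 0 calls do not set these cell types apart. Of the listed symbols, 10 of 25 were measured for pyramidal and granule neurons and 8 of 22 for inhibitory neurons. The study cites earlier anatomical work that found fewer hippocampal neurons after such exposure, and cell numbers were not measured here. Without control animal 2, 2 probe sets of pyramidal and granule neurons were called lower and 2 of immature neurons higher, and without FASD animal 2 a myelin probe set was called lower.

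Of 10 probe sets for markers of the ependyma and choroid plexus, which line and fill the ventricle beside the hippocampus, 2 were called lower. All 10 had a negative difference, with a median of -0.26, where 46.1% of all probe sets were negative. DYNLRB2, a dynein light chain of cilia, was between 7.17 and 8.01 in controls and 6.92, 7.37, 7.01, 6.75 and 7.09 in the FASD animals, with 4 of 5 below all controls, a difference of -0.40 (standard error 0.18, unadjusted p = 0.0321 by limma). TEKT1, a tektin of ciliary microtubules, differed by -0.38 (standard error 0.18, unadjusted p = 0.0455). These were the 2 called, where 3.35% of all probe sets were called lower. CAPSL and SPAG6, a protein of the ciliary axoneme, differed by -0.45 and -0.41, with unadjusted p of 0.219 and 0.103. FOLR1, a folate receptor of the choroid plexus, differed by -0.30 with an unadjusted p of 0.406.

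The animals spread widely in these markers of ependyma and choroid plexus. Centred on the mean of the controls, the mean of the 10 probe sets was 0.37 in control animal 6, the highest, -0.26 in control animal 1, and -0.43 in FASD animal 4, the lowest. The other FASD animals were at -0.22, -0.20, -0.31 and -0.12, so that only FASD animals 3 and 4 lay below every control. The median of the list was -0.15 without control animal 2, and it was between -0.34 and -0.19 when any other single animal was left out. No member was called lower without control animal 3 or 6 or FASD animal 3 or 4, 1 was without control animal 4 or 5 or FASD animal 1, 2 or 6, and 3 were without control animal 1. How much ventricular lining each dissected sample carried was not measured, and its part in these values was not tested.

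Vessel markers differed in both directions, where 2.69% of all probe sets were called higher and 3.35% lower. Of 13 endothelial probe sets, PECAM1 (0.27), an adhesion molecule, and CLDN5 (0.31), a claudin of the tight junctions of the blood-brain barrier, were higher at an unadjusted p under 0.05, with p of 0.0112 and 0.0275 by limma. ABCB1 (-0.37), the P-glycoprotein efflux pump of the same barrier, was lower, with p of 0.0314. The exact permutation p, two-sided, was 0.0519 for PECAM1, 0.0606 for CLDN5 and 0.0281 for ABCB1. Of 10 probe sets of mural cells and fibroblasts, MYH11 (0.26), a smooth muscle myosin, and CSPG4 (0.16), a proteoglycan of pericytes that also marks oligodendrocyte precursors, were higher, and the median of the list was 0.14. Centred on the mean of the controls, the mean of these 10 was between -0.21 and 0.19 in controls. In FASD animals 1, 2, 3, 4 and 6 it was 0.09, 0.08, -0.12, -0.02 and 0.43, so that only FASD animal 6 lay above every control. The vessel genes given here were named for low p on these same animals. When single animals were left out, PECAM1 was under 0.05 in all 11 fits, while CLDN5 lost the call without control animal 5 or 6 or FASD animal 1 or 4. ABCB1 lost it without control animal 3 or 5 or FASD animal 1 or 4, MYH11 without FASD animal 6, and CSPG4 without control animal 4 or FASD animal 2.

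Microglia and oligodendrocyte precursor markers had few calls, in both directions. Of 13 microglia probe sets 1 was called higher and 1 lower, with a list median of -0.04. Of 11 precursor probe sets 1 was called higher and 1 lower, with a median of 0.02. Over all probe sets 2.69% were called higher and 3.35% lower. AIF1, a calcium-binding protein of microglia, was between 7.33 and 8.01 in controls and 7.01, 7.72, 7.30, 5.87 and 7.25 in the FASD animals, a difference of -0.58 (standard error 0.27, unadjusted p = 0.0402 by limma). The low value of FASD animal 4 carried much of it, and without that animal the difference was -0.29. C1QA, a chain of complement C1q made by microglia, was 0.31 (standard error 0.14) higher with an unadjusted p of 0.0305, and its highest value, 8.17, was that of the same animal. Both calls were lost in 6 of the 11 fits without 1 animal, in each case without control animal 3, 4 or 6 or FASD animal 1 or 4, for AIF1 also without control animal 5 and for C1QA also without FASD animal 6. CA10, a carbonic anhydrase-related protein, was the lower of the precursor markers at -0.44 (standard error 0.15, unadjusted p = 0.0064), but its other probe set differed by -0.12 with an unadjusted p of 0.34.

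**Figure D4:**
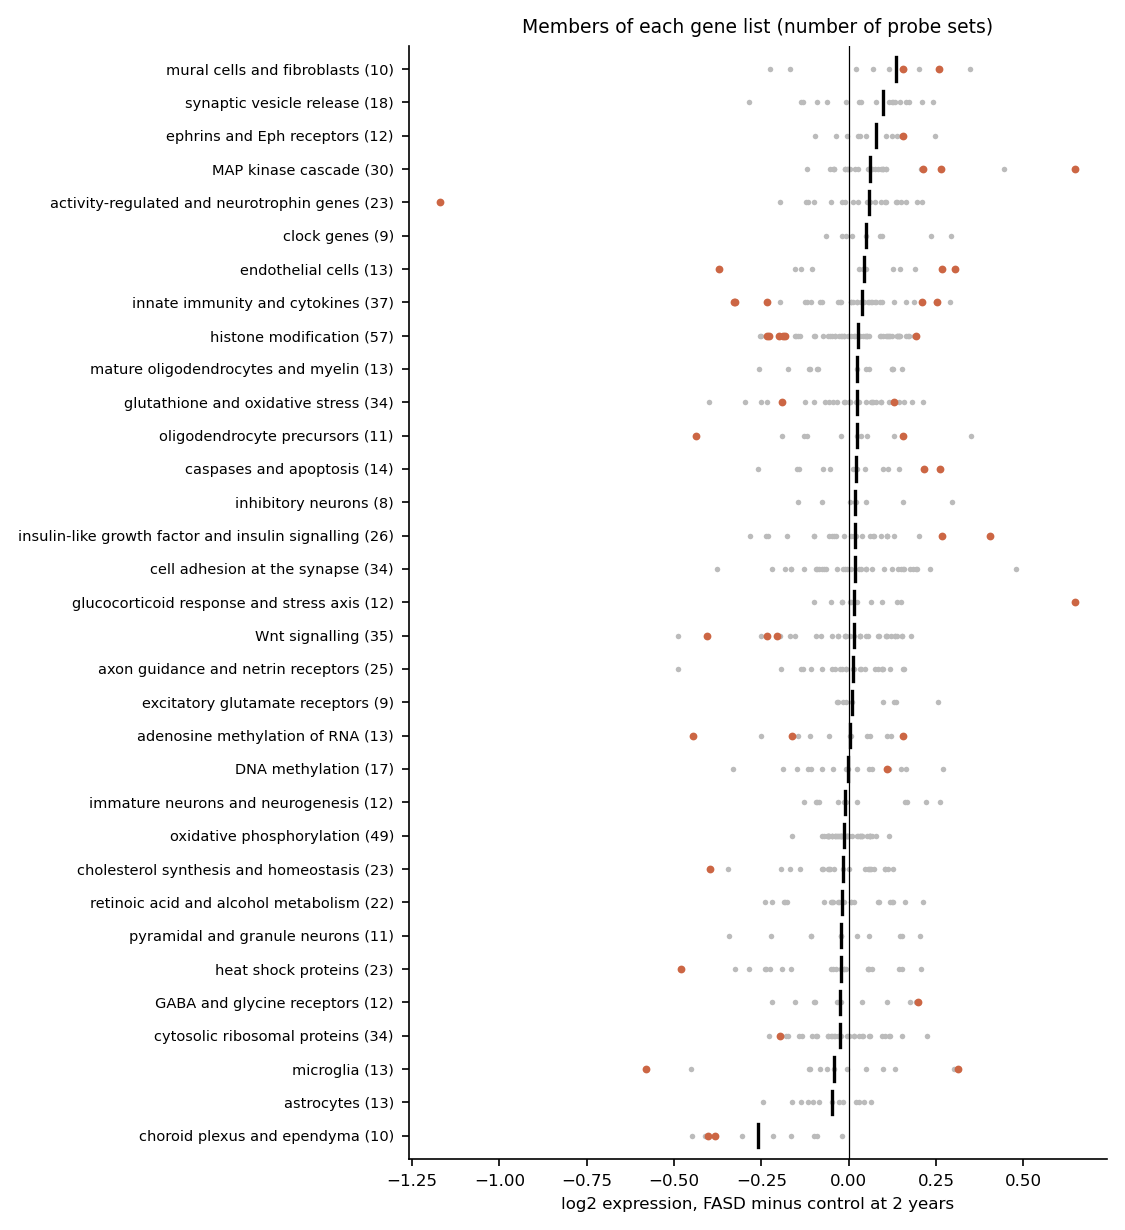
Each row is a gene list with its number of probe sets, each point is a probe set placed at its log2 difference of FASD minus control at 2 years, and the black bar is the list's median. Coloured points have an unadjusted limma p under 0.05, and the choroid plexus and ependyma list has the lowest median, -0.26.

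Of 35 probe sets of Wnt signalling, 3 were called, all lower, where 3.35% of all probe sets were. WLS (-0.41), which carries Wnt proteins to the cell surface, LGR4 (-0.23), a receptor for R-spondins that boosts Wnt signals, and WIF1 (-0.21), a secreted inhibitor of Wnt, had unadjusted p of 0.0068, 0.0431 and 0.0482 by limma, while the median of the list was 0.02. WLS was between 7.78 and 8.39 in controls and 7.55, 7.74, 7.77, 7.74 and 7.95 in the FASD animals, with 4 of 5 below all controls. WLS was under 0.05 in all 11 fits that each left out 1 animal, but it was named for its low p on these same animals. The count of lower members was 1 without control animal 3, 4 or 6 or FASD animal 1, 2, 4 or 6, 2 without control animal 5, 4 without FASD animal 3 and 5 without control animal 2. The called members of the MAP kinase list were all higher, with DUSP1, SPRY4 and MAP2K5 as 3 of 30 against 2.69% of all probe sets and a median of 0.06. These 3 were under 0.05 in all 11 such fits, but they too were named for low p on these animals. Of these 3, DUSP1 and SPRY4 are inhibitors of the cascade.

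In insulin and insulin-like growth factor signalling, AKT1 (0.40) and AKT2 (0.27), kinases downstream of the insulin receptor, were the 2 of 26 under 0.05. Both were higher, where 2.69% of all probe sets were called higher, but the other probe set of AKT1 differed by 0.11 with an unadjusted p of 0.245. AKT1 lost its call without control animal 2 or FASD animal 1, and AKT2 without FASD animal 3. Without control animal 2 the list had 3 higher and 2 lower calls, AKT1 not among them. Of 14 probe sets of caspases and apoptosis, BAX (0.26), which permeabilizes mitochondria, and ENDOG (0.21), a mitochondrial nuclease, were higher, with p of 0.0186 and 0.0485, against 2.69% of all probe sets. BAX lost its call without control animal 6, and ENDOG without control animal 1, 4, 5 or 6 or FASD animal 1, 2 or 4. The list had 3 higher calls without FASD animal 3. Of 12 ephrin and Eph receptor probe sets, EFNB1 was the 1 called, and the median was 0.08. Of 23 activity-regulated and neurotrophin genes, NGFR was the 1 called, and of 12 genes of the glucocorticoid response, DUSP1 was. Over all probe sets, 6.05% were called.

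Among chromatin and RNA regulators, 6 of 57 histone modification probe sets were called, 5 of them lower, where 6.05% of all probe sets were called and 3.35% were lower. KDM4B (0.19), a histone demethylase, was higher, and SIRT1 (-0.19), HDAC2 (-0.18), SETDB2 (-0.23), KDM3B (-0.23) and KAT6A (-0.20) were lower. SIRT1 and HDAC2 are deacetylases, SETDB2 a methyltransferase, KDM3B a demethylase and KAT6A an acetyltransferase. Of the 13 probe sets of RNA adenosine methylation, YTHDC2 (-0.45), a reader of the mark, and WTAP (-0.16), a subunit of the methyltransferase complex, were lower and RBM15B (0.16), another subunit, was higher. METTL3, the catalytic subunit, differed by -0.15 with an unadjusted p of 0.0513. These lists follow terms that the study drew from the same arrays and are not independent evidence. The lower histone modification calls numbered 1 to 6 when 1 animal was left out, with 1 without control animal 5 or 6 or FASD animal 1, 2 without control animal 1 or 4 or FASD animal 2, and 6 without control animal 2, which also gave 8 higher calls. Without control animals 1 and 3 there were 3 and 2 higher calls, and there was none without FASD animal 3. The RNA methylation list had 1 lower call without control animal 5, 4 without FASD animal 6 and 2 or 3 otherwise. RBM15B lost its call without control animal 4, 5 or 6 or FASD animal 1, 2, 4 or 6.

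Of 37 probe sets of innate immunity, 2 were called higher and 3 lower, where 2.69% and 3.35% of all probe sets were. TLR7 (-0.23), a receptor for single-stranded RNA, had an unadjusted p of 0.00694 by limma, with 3 of 5 FASD animals below all controls, while its other probe set differed by -0.11 with a p of 0.205. TGFBR1 (-0.33), a receptor of the transforming growth factor beta family, and IFIT2 (-0.32), an interferon-induced protein, were lower, though the other probe set of IFIT2 differed by 0.04. IRF7 (0.21), a transcription factor of the interferon response, and TGFB3 (0.25), a ligand of that receptor family, were higher. The lower calls numbered 1 without control animal 4, 5 or 6 or FASD animal 2 and 5 without control animal 2. The higher calls numbered 0 without control animal 4 or 6 or FASD animal 3, and 1 without control animal 5 or FASD animal 1, 2 or 4.

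In metabolism and protein quality, lists held at most 2 called members each, where 6.05% of all probe sets were called. Of 34 glutathione and oxidative stress probe sets, GGCT was lower and SRXN1 (0.13), a sulfiredoxin, was higher. IDI1 (-0.40), an isomerase of isoprenoid synthesis, was the 1 of 23 cholesterol genes, HSPA4L (-0.48) the 1 of 23 heat shock proteins, and RPS10 (-0.20) the 1 of 34 ribosomal proteins. None of 49 probe sets of oxidative phosphorylation was called, with differences between -0.16 and 0.11. None of 22 of retinoic acid and alcohol metabolism was either, nor of 25 of axon guidance, 34 of synaptic adhesion, 18 of synaptic vesicle release, 9 of glutamate receptors or 9 of the clock. Several of these counts of 0 or 1 moved when control animal 2 was left out, to 7 lower heat shock proteins, 5 lower glutathione genes, 4 lower ribosomal proteins, 4 lower genes of retinoic acid and alcohol metabolism, 5 higher genes of vesicle release and 4 higher genes of synaptic adhesion. Other animals moved them as well, with 3 lower heat shock proteins without FASD animal 2 or 6 and 2 higher genes of vesicle release without FASD animal 6.

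At 5 months, other animals were compared in the same way, with no animal shared between the ages. One 5-month control, animal 6, had labels that disagreed on its age, and its title and description, which put it at 5 months, were followed. The difference between ages, FASD minus control at 2 years minus the same at 5 months, had an unadjusted p under 0.05 for 345 probe sets (3.00%), 243 above 0 (2.11%) and 102 below (0.886%). None passed an adjusted p under 0.05, the lowest being near 1, and without control animal 2 the count was 755. Of the 696 probe sets called at 2 years, 69.1% had the same sign at 5 months, against 57.5% of all probe sets. By direction the share was 81.6% of the lower ones and 53.5% of the higher ones, where 61.0% of all probe sets were negative at 5 months. The 2 ages shared the fitted variance and the joint normalization. At both ages 39 were called, which is 5.603% of those at 2 years and 7.01% of the 556 (4.83%) at 5 months, of which 169 were higher (1.47%) and 387 lower (3.36%), and 35 of the 39 had the same sign.

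Some of the 2-year differences were near those at 5 months. GGCT differed by -0.19 at 2 years and -0.29 at 5 months, TLR7 by -0.23 and -0.21, and EFNB1 by 0.16 and 0.08. Others were not: NGFR differed by -1.17 at 2 years and -0.05 at 5 months, a difference between ages of -1.12 (standard error 0.51, unadjusted p = 0.0372 by limma). C4BPA differed by 1.01 and -0.41, a difference between ages of 1.42 (standard error 0.50, unadjusted p = 0.0096 by limma), and USP32 by -0.60 and 0.07, a difference of -0.66 (standard error 0.23, unadjusted p = 0.00914). AKT2 differed by 0.27 and -0.14, a difference of 0.41 (standard error 0.14, unadjusted p = 0.00913 by limma).

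The named genes with the lowest p for the difference between ages changed sign from 5 months to 2 years. DSCC1, a factor of sister chromatid cohesion, differed by 0.25 at 2 years and -0.27 at 5 months (unadjusted p of the difference between ages = 0.00153 by limma). Its mean expression over all arrays was low, 4.06, at percentile 2.31, and its 2-year call was lost without FASD animal 2 or 4. By the same limma test, GLE1 differed by 0.21 and -0.12 (unadjusted p = 0.00201), TMEM109 by 0.19 and -0.13 (unadjusted p = 0.00295), and GPD1, an enzyme of glycerol phosphate metabolism, by -0.25 and 0.26 (unadjusted p = 0.0024). The 2-year call of GPD1 was lost without control animal 1, 4 or 5 or FASD animal 2 or 6. MBP, the basic protein of myelin, was between 11.83 and 12.54 in 2-year controls, with a median of 12.10, and 11.76, 12.19, 12.09, 11.89 and 11.43 in the FASD animals, with overlap, a difference of -0.26 (standard error 0.16). At 5 months its difference was 0.57, and the difference between ages was -0.82 (standard error 0.23, unadjusted p = 0.0018 by limma).

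Myelin genes as a list were near the median of all probe sets at 2 years and above it at 5 months. The myelin list had a median of 0.03 at 2 years, with no call. At 5 months its median was 0.34, with 7 of 13 higher at an unadjusted p under 0.05, where 1.47% of all probe sets were. FASD animal 2 at 5 months had the lowest array weight at either age, 0.273. Its mean correlation with the other arrays of that age, 0.980, was also the lowest there. The myelin values without this animal are not given here. UGT8, which makes the galactolipids of myelin, differed by 0.05 at 2 years and 0.56 at 5 months, and PLLP, plasmolipin, by -0.11 and 0.42, with unadjusted p for the difference between ages of 0.0206 and 0.0348. MAL differed by 0.06 and 0.42, and GJB1, a connexin of oligodendrocytes, by -0.09 and 0.34, with p of 0.0853 and 0.0503. MBP, UGT8 and PLLP were the 3 of 13 under 0.05 for the difference between ages, all below 0, against 0.886% of all probe sets.

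**Figure D5:**
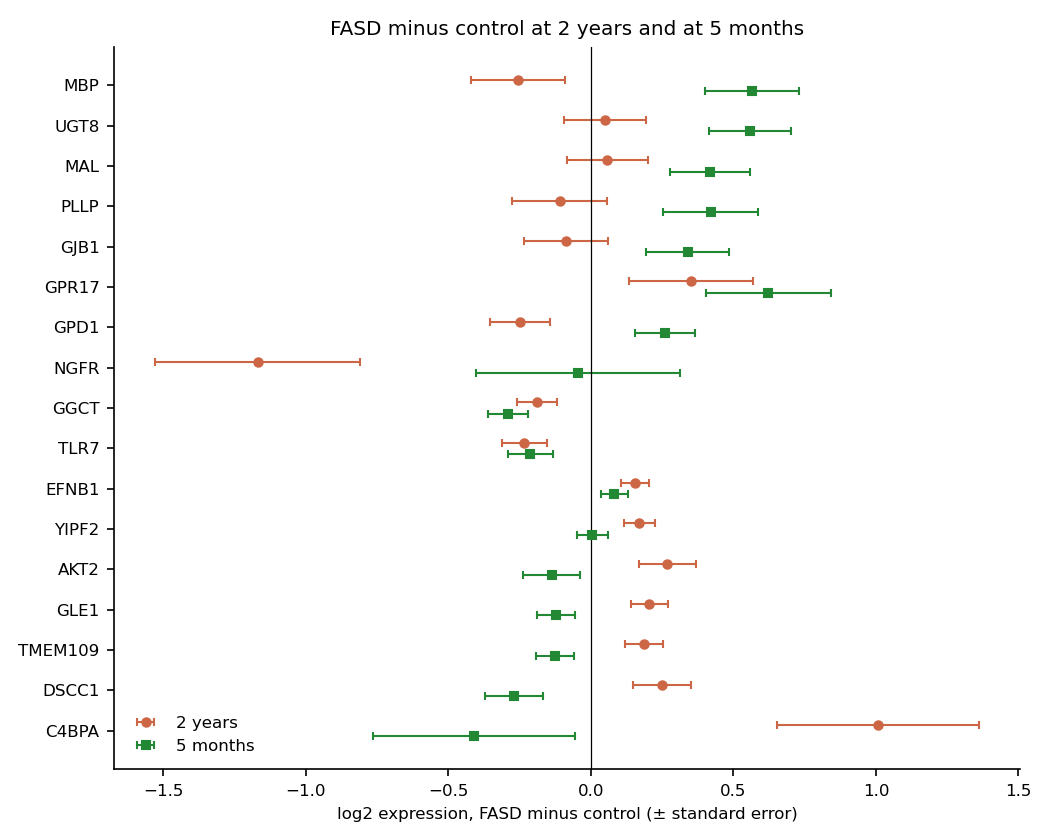
The x axis gives the log2 difference of FASD minus control, with bars of 1 standard error from limma, for 17 genes at 2 years (circles) and at 5 months (squares). MBP lies at -0.26 at 2 years and 0.57 at 5 months, and GGCT and TLR7 lie below 0 at both ages.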

How the data were processed

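The authors hybridized RNA of 24 vervet hippocampi to rhesus arrays, discarded 2 arrays as outliers and deposited log2 intensities of 22, made by RMA (background correction, joint normalization of the arrays, probe set summary), with no version stated in the methods or labels used here. RMA gives all arrays a like distribution, so a shift of most genes would not be seen. The methods state filters for annotation, detection and 1 probe set per gene, and the table held 11512 rows. The platform annotation gave 1 symbol for 8730 rows (8208 different symbols, with a locus number in place of a name in 441 rows), several for 88 and none for 2694. Some symbols have several rows in this annotation, and where they differ this is said. Only rows with 1 symbol are named.

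The means of both groups at both ages were fitted to the 22 arrays with limma 3.58.1 in R 4.3.3, two-sided, with Benjamini-Hochberg adjustment over all rows. The contrast is FASD minus control at 2 years. Exact permutation tests ran over the 462 arrangements of the 11 animals. One array stands for 1 animal according to the study, so p-values rest on the spread between animals, and the number of arrays limits the precision. For limma that spread is pooled over both ages and moderated across rows. The main fit takes the animals as independent, and shared mothers were not modelled. The steps were tested on simulated data. Figures used matplotlib 3.10.9 in Python 3.11.15.

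The comparison, the 35 gene lists and the rule for named genes were chosen with earlier results of these data known. That rule took symbols other than locus numbers: the 10 of lowest p in each direction, the 5 of largest difference in each direction with p under 0.01, for the difference between ages the 5 whose p was lowest, EFNB1 and GGCT, and up to 4 members of lowest p per list. Genes outside it are KDM3B, KAT6A, IFIT2, UGT8, PLLP, MAL, GJB1, FOLR1 and those said to be chosen after their values were seen. Lists with under 5 probe sets, of blood and of neighbouring regions, are not described. Alternatives were only the 11 arrays of 2 years, another variance model, centring, quantile normalization, array weights, 1 probe set per symbol, the more highly expressed 5756 rows, a block for replicate number, and every 2-year animal left out in turn. Leaving out control animal 2 with FASD animal 2, and FASD animal 2 at 5 months, was added after seeing the data.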

Additional observations from a re-analysis of the deposited data

Results flagged for a closer look

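Of 156 groups of 5 or 6 animals tested for the named genes, 5 had an animal farther from the others than Dixon's critical value at the 95% level, and chance alone flags about 1 in 20 groups. Control animal 6 was at 7.81 for NIFK, where the other controls lay between 6.81 and 7.15. FASD animal 3 was at 7.22 for LGR4, with the other FASD animals between 6.75 and 6.86. FASD animal 4 was at 4.95 for CAPSL, with the others between 5.65 and 5.78. FASD animal 2 was at 7.42 for CSPG4, with the others between 7.12 and 7.17. Control animal 1 was at 8.40 for METTL3, with the other controls between 8.55 and 8.59.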

How the results depend on the processing

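No probe set passed an adjusted p under 0.05 by limma under any alternative, and 696 had an unadjusted p under 0.05 with all 11 animals. This count was 1219 with array weights, 278 among the 5756 more highly expressed probe sets, 1398 without control animal 2 and FASD animal 2, and 395 to 1670 when 1 animal was left out. With only the 11 arrays of 2 years it was 540, under the 575.6 of a uniform p. The share lower in FASD, 55.5%, was 58.9% with only the 11 arrays of 2 years, 47.8% with ordinary variances and 50.6% after quantile normalization. It was 59.4% among the more highly expressed, 51.5% without both animals numbered 2 and 49.6% to 59.1% when 1 animal was left out. The count without overlap, 36, was 13 among the more highly expressed, 503 without both animals numbered 2 and 45 to 339 when 1 animal was left out. The count for the difference between ages, 345, was 724 with array weights, 145 among the more highly expressed and 253 to 755 when 1 animal was left out. Among the more highly expressed probe sets the list medians were -0.12 for oligodendrocyte precursors, 0.0843 for axon guidance and -0.0951 for innate immunity. With all probe sets these medians were 0.0233, 0.0126 and 0.0376. The median for GABA receptors was 0.0185 without both animals numbered 2, against -0.0254 with all animals. The more highly expressed probe sets and the fits without animals test fewer probe sets or animals, and for the other settings the cause was not tested. The 25 genes named for lowest p or largest difference, and GGCT, had an unadjusted p under 0.05 in all 11 fits without 1 animal, but the 25 were chosen for low p on these same animals. By the two-sided exact permutation test on the 2-year animals, p was over 0.05 for some genes called by limma. They include FAM3C (0.0779), C1QA (0.0779), IRF7 (0.0758), YTHDC2 (0.0693), CLDN5 (0.0606), TGFBR1 (0.0584), DYNLRB2 (0.0541) and PECAM1 (0.0519). Same-numbered FASD and control animals were compared by the correlation of their deviations from the group means. The correlations were 0.073 to 0.383, all above 0, and only FASD animal 2 correlated most with the control of its own number. The study's methods state that age-matched cases and controls were sacrificed in sequence. The labels used here do not give that order, so these correlations do not settle whether the numbers pair the animals. With the replicate number as a block, 634 probe sets were called, 384 of them among the 696, and 66.2% of the 634 were lower.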
